A study of Mus musculus with 6 samples.

Results

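The genes described here are 10 genes of growth hormone signalling (Ghr, Jak2, Stat5a, Stat5b, Stat3, Cish, Socs1, Socs2, Socs3 and Igfals) in mouse tibialis anterior (TA) muscle. They were taken as every array probe that carries one of these symbols, which gave 19 of 45281 probes, and they stand among 19057 genes that had a probe of their own. The genes were picked from this same comparison because several of them differed, so their differences, and which of them passed a threshold, are given as a description, are no test of these genes and support nothing further. Total RNA of whole TA muscle was measured on bead arrays in 6 samples. In 3 samples the muscle had received an adeno-associated viral vector of serotype 8 encoding the homeobox transcription factor Prox1 (AAV8-Prox1). In the other 3 the same type of vector encoded the red fluorescent protein mCherry with a nuclear localization signal (AAV8-mCherry, the control). All were C57Bl/6J male mice, labelled 3 months old. They were injected at 8 weeks of age, the opposite leg carried the control vector, and the study's text places collection 4 weeks after injection. Nothing in the labels ties muscles to individual mice or tells whether animals were pooled, so p-values below measure only the spread between these samples. The vector reached part of the fibres, the muscle also holds vessels, connective tissue and immune cells, and the promoter that drives the transgene is not given in the sources used here.

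Growth hormone is secreted by the pituitary and binds the receptor Ghr, to which the tyrosine kinase Jak2 is attached. Active Jak2 phosphorylates STAT proteins, chiefly STAT5A and STAT5B, which enter the nucleus and switch on target genes. Among these targets are Cish, Socs2 and Socs3, whose proteins brake the same pathway, and Igfals, which encodes the acid-labile subunit that holds insulin-like growth factors in the circulation and is made mainly in the liver. Skeletal muscle responds to growth hormone directly and through insulin-like growth factor 1.

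Values are log2 signals after quantile normalization. A gene is represented by its brightest probe, a signal of 7 was taken as the upper edge of background, and a gene is said to have been called when its adjusted p from limma (Benjamini-Hochberg over all 45281 probes) was under 0.05. The fold changes are AAV8-Prox1 minus control, and the ± values are SDs over 3 muscles. On each array 10667 to 10672 probes lay at 7 or above. Quantile normalization gives all arrays the same distribution, so these near-equal counts are no check of coverage. Over the 10642 probes whose mean reached 7, pairs of arrays correlated at 0.990 to 0.994 within a group and at 0.967 to 0.975 between groups. The 2 Prox1 probes lay between 6.42 and 6.62 on all arrays, at background, so the array gave no check of the transgene itself. An exact permutation test of 3 samples against 3 cannot give a p below 0.1.

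In AAV8-Prox1 muscles Cish, Socs2, Jak2, Igfals and Stat5a were lower and Stat3 was higher. Cish was 3.82-fold lower, Socs2 2.07-fold, Jak2 1.84-fold, Igfals 1.68-fold and Stat5a 1.22-fold, and Stat3 was 1.34-fold higher. These 6 were called. Ghr was lower in each AAV8-Prox1 muscle than in each control without being called, Socs3 overlapped between the groups, and Stat5b and Socs1 stayed at background on every array. Over all genes 9.44% were called, 4.21% lower and 5.23% higher. Among the 6734 genes with a mean signal of at least 7, where 8 of the 10 members lie, 24.3% were called, 11.3% lower. The median log2 fold change of the 10 members was -0.33, and that of all genes lay at 0. By probe, 7 of the 19 were called, against 6.02% of all probes. The groups were apart, lower in 6 members and higher in 1, where 23.3% of all genes (11.1% lower, 12.2% higher) and 43.1% of those at 7 or more (20.6% lower) were apart. As the members were chosen on these values, nothing is read from the comparison of the counts.

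**Figure D1:**
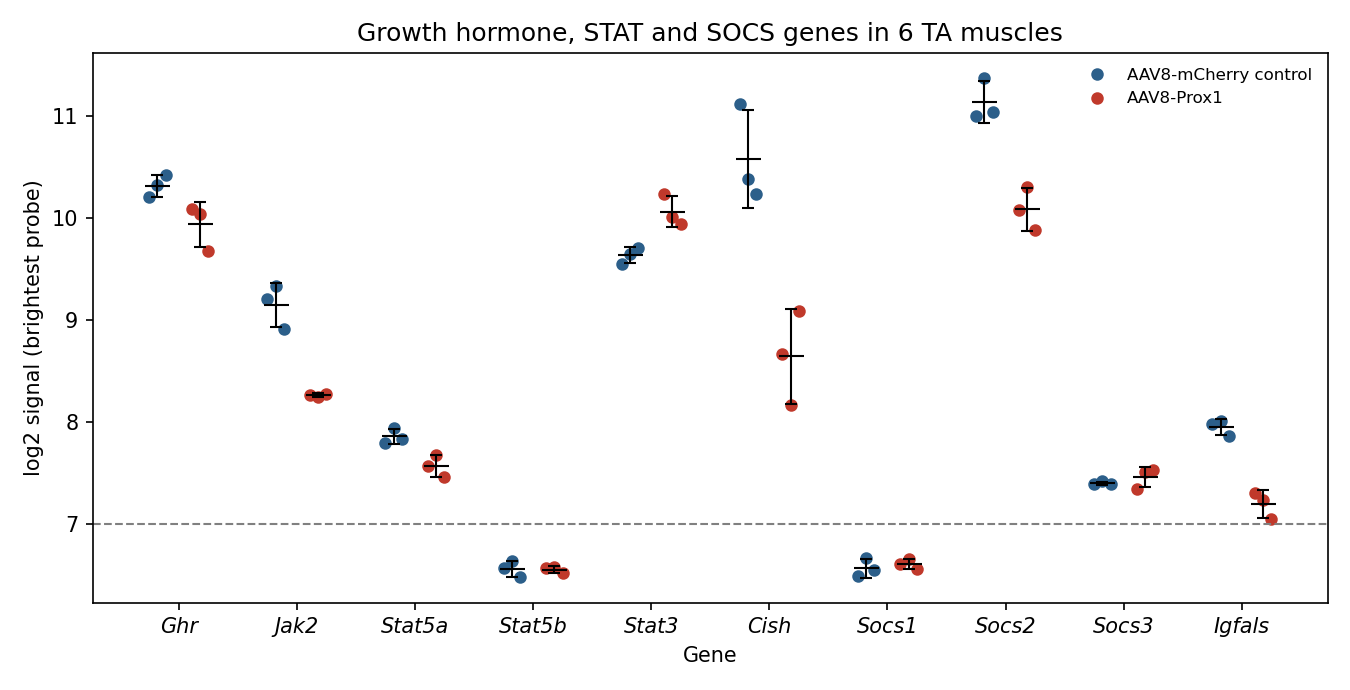
Log2 signal (y axis) of the brightest probe of each of the 10 genes in the 3 AAV8-Prox1 and 3 control muscles (points), with the group mean and SD as bars and the signal of 7 as a dashed line. Cish, Socs2, Jak2, Igfals, Stat5a and Ghr lie lower in all 3 AAV8-Prox1 muscles, Stat3 lies higher, Socs3 overlaps, and Stat5b and Socs1 stay under the line.

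The receptor Ghr read 10.09, 10.04 and 9.68 in AAV8-Prox1 replicates 1, 2 and 3, and 10.20, 10.32 and 10.42 in control replicates 1, 2 and 3. Its AAV8-Prox1 values all lay under the lowest control value, with replicate 3 furthest from it. The means were 9.94 ± 0.22 and 10.31 ± 0.11, a log2 fold change of -0.38 (SE 0.11), or 1.30-fold lower. A further Ghr probe, with signals of 7.07 to 7.44, overlapped between the groups (log2 fold change -0.06), and the remaining probe stayed at 6.53 to 6.78. The receptor's difference was thus seen with its brightest probe alone.

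Jak2, the kinase that the receptor carries, read 8.27, 8.25 and 8.28 with AAV8-Prox1 and 9.21, 9.33 and 8.91 in the controls. The AAV8-Prox1 muscles were nearly identical, and the controls were spread over a wider range above them. The means were 8.27 ± 0.02 and 9.15 ± 0.22, a log2 fold change of -0.88 (SE 0.10). The next probe of Jak2, closer to background, read 7.08, 7.03 and 6.88 against 7.25, 7.42 and 7.16. It pointed the same way without overlap, with a log2 fold change of -0.28 (SE 0.08) that was not called. The other 2 Jak2 probes lay at background, and averaged with them the difference was -0.30.

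Of the STAT genes, Stat5a, which encodes the main signal carrier of growth hormone together with Stat5b, read 7.57, 7.68 and 7.46 with AAV8-Prox1 and 7.80, 7.94 and 7.84 in the controls. The groups did not overlap, but the gap was small. The means were 7.57 ± 0.11 and 7.86 ± 0.07, a log2 fold change of -0.29 (SE 0.06). Its call was not stable. It was lost with the mean of both probes (-0.14). It was kept when AAV8-Prox1 replicate 2 was left out (-0.345) and lost without AAV8-Prox1 replicate 1 (-0.29) or 3 (-0.235) and without control replicate 1 (-0.32), 2 (-0.25) or 3 (-0.30). The second Stat5a probe was at background and did not differ in mean (0.00). Stat5b, with 1 probe, read 6.57, 6.58 and 6.52 against 6.57, 6.64 and 6.48, and no level could be given for it.

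Stat3, the STAT protein best known for carrying interleukin-6 signals, went the other way. Its brightest probe read 10.23, 10.01 and 9.94 with AAV8-Prox1 and 9.55, 9.65 and 9.71 in the controls, with AAV8-Prox1 replicate 1 the highest of all. The means were 10.06 ± 0.15 and 9.64 ± 0.08, a log2 fold change of 0.42 (SE 0.08). A second probe gave a near-equal difference, with 8.66, 8.41 and 8.43 against 7.92, 8.16 and 8.20 and a log2 fold change of 0.41 (SE 0.09), and was called as well. The remaining probe differed little, reading 7.75, 7.77 and 7.77 against 7.77, 7.66 and 7.74 (0.04, overlapping). The call of the brightest probe was lost when AAV8-Prox1 replicate 2 was dropped (0.45), and likewise for control replicates 1 (0.38) and 2 (0.43).

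The largest difference among the 10 genes was that of Cish, which encodes the cytokine-inducible SH2 protein that competes for docking sites on the activated receptor. Cish read 8.67, 8.17 and 9.09 with AAV8-Prox1 and 11.12, 10.38 and 10.23 in the controls. All AAV8-Prox1 values lay more than 1 log2 unit under the lowest control, although both groups were widely spread, with AAV8-Prox1 replicate 2 the lowest and control replicate 1 the highest. The means were 8.64 ± 0.46 and 10.58 ± 0.48, a log2 fold change of -1.93 (SE 0.28). Leaving out any 1 muscle left it between -2.16 and -1.66, and the call was kept each time. It was lost with trend and robust estimation of the spread. Cish has 1 probe on the array, so no second probe could be set beside it.

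Socs2, whose protein is part of a ubiquitin ligase that binds the activated growth hormone receptor, read 10.08, 10.30 and 9.88 with AAV8-Prox1 and 11.00, 11.37 and 11.04 in the controls. The groups were well apart, and within each group the muscles lay close together. The means were 10.09 ± 0.21 and 11.14 ± 0.20, a log2 fold change of -1.05 (SE 0.13). Its second probe was at background, and averaging both probes gave -0.53. Among the AAV8-Prox1 muscles Socs2 was highest in replicate 2 and lowest in replicate 3, whereas Cish was lowest in replicate 2 and highest in replicate 3, so these genes did not follow each other muscle by muscle.

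The other SOCS genes behaved differently. Socs3, the brake on STAT3-activating receptors, read 7.35, 7.51 and 7.53 with AAV8-Prox1 and 7.39, 7.42 and 7.39 in the controls. The AAV8-Prox1 values ran from below to above the controls, and the means of 7.46 ± 0.10 and 7.40 ± 0.02 differed by 0.06 (SE 0.05). Socs1, an inhibitor of JAK kinases best known from interferon signalling, read 6.61, 6.66 and 6.56 against 6.49, 6.67 and 6.55, all at background.

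Igfals read 7.31, 7.24 and 7.05 with AAV8-Prox1 and 7.98, 8.01 and 7.86 in the controls. Its signals were low, yet the groups were apart and each was narrow. The means were 7.20 ± 0.13 and 7.95 ± 0.08, a log2 fold change of -0.75 (SE 0.07), and the call was kept whichever muscle was left out. Because its AAV8-Prox1 values lay just above background, a background limit of 7.5 in place of 7 would leave a log2 difference of -0.45 as the bound.

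**Figure D2:**
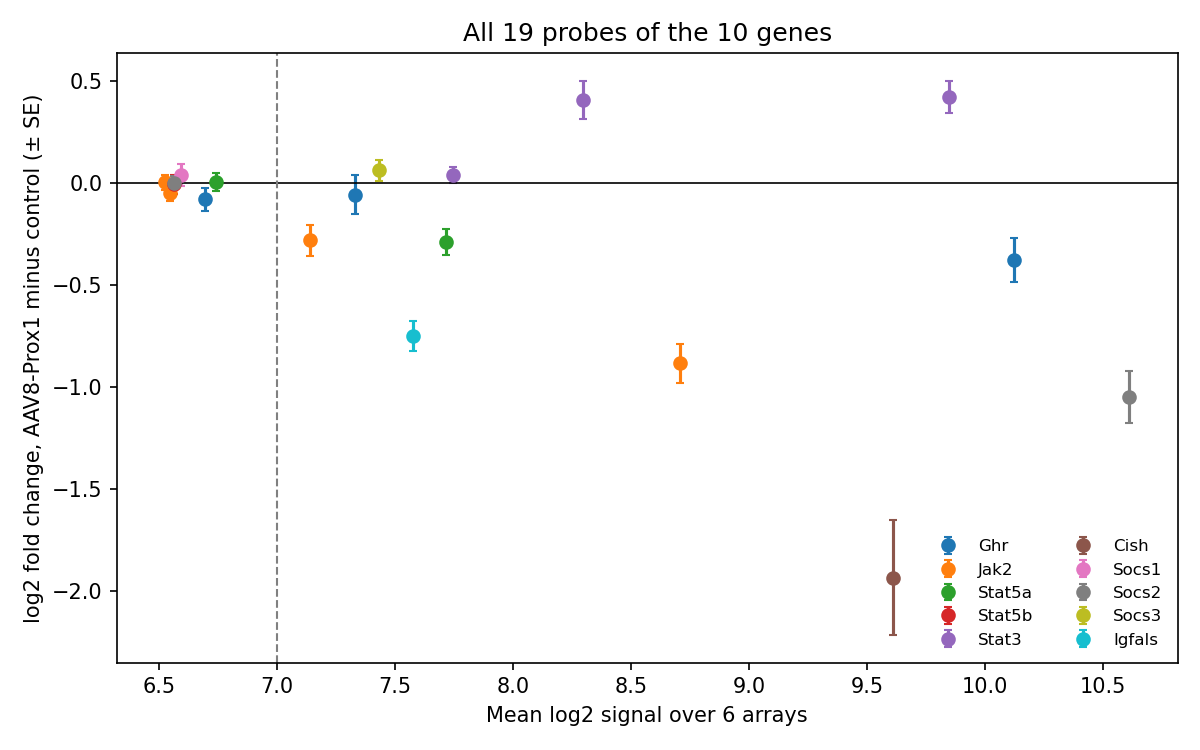
Log2 fold change, AAV8-Prox1 minus control (± SE), of all 19 probes of the 10 genes against their mean log2 signal over 6 arrays, with a colour for each gene and a dashed line at 7. The brightest probes of Cish, Socs2, Jak2 and Igfals lie between -1.93 and -0.75, both brighter Stat3 probes lie near 0.42, and probes at background lie near 0.

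Among the 6734 genes at a mean signal of 7 or more, ordered from the most negative log2 fold change, Cish stood at place 4, Socs2 at 46, Jak2 at 70 and Igfals at 122. In that order 50 genes had a log2 fold change of -1 or lower. Ghr stood at place 548, Stat5a at 847, Socs3 at 3994 and Stat3 at 6198.

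**Figure D3:**
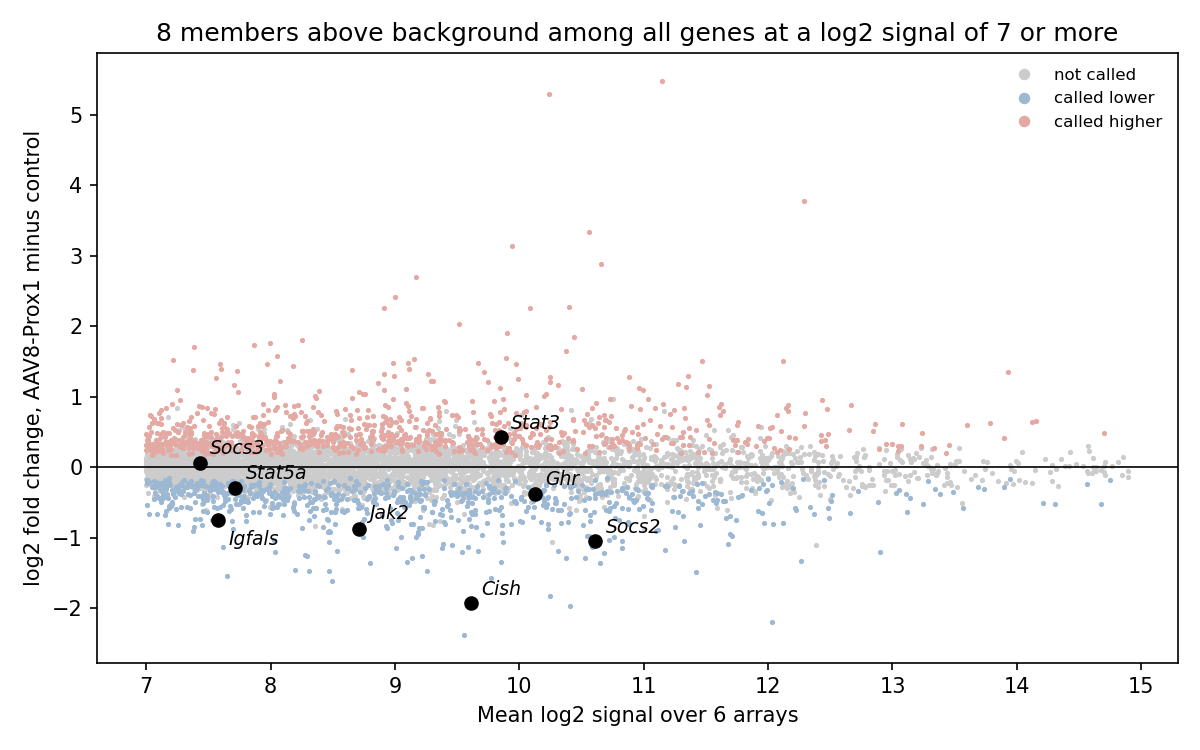
Log2 fold change, AAV8-Prox1 minus control, against mean log2 signal over 6 arrays for the 6734 genes at a mean signal of 7 or more (small points), with the 8 members above background marked by name. Cish lies at the lower edge of all genes at -1.93, Socs2, Jak2 and Igfals lie at -1.05, -0.88 and -0.75, and Stat3 lies above 0 at 0.42.

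Whether other genes followed Cish across the 6 muscles was described by centring each gene on its own mean and taking the mean absolute difference from Cish over the arrays, in log2 units. The nearest genes out of 19056 were Amhr2, the receptor of anti-Müllerian hormone, at 0.307, Lrtm1, a leucine-rich repeat membrane protein, at 0.317, Fndc5, the precursor of irisin, at 0.327, Casq1, the calcium-storing calsequestrin of fast fibres, at 0.333 and Tmem52, a transmembrane protein, at 0.377. Their log2 fold changes were -1.47, -1.83, -1.48, -1.49 and -1.25. Socs2 came at place 47 with a difference of 0.512, Jak2 at place 55 with 0.525 and Igfals at place 110 with 0.593. These likenesses rest on 6 arrays that fall into 2 groups, and mainly show genes that were lower by a similar amount.

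Because STAT5 binds palindromes of the form TTCNNNGAA, the 250 bases before each RefSeq transcript start (build GRCm38.p6) were searched for that motif, which reads the same on both strands. The set of promoters held 9 of the 10 genes, with 14 windows. Socs2 was absent from it and was not searched. The motif was carried by 3 windows in 2 genes, 2 of Igfals and 1 of Socs3. Of all 32851 windows of the same length, 7.02% did. The 3 matches are shown with 10 bases on either side and with the motif in capitals, since they set the called gene Igfals beside the uncalled gene Socs3:
Igfals, first start, chr17:24877598-24877626, plus strand: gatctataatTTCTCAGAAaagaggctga
Igfals, second start, chr17:24878163-24878191, plus strand: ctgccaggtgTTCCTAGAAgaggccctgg
Socs3, chr11:117969502-117969530, minus strand: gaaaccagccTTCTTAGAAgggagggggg

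The Igfals matches lay 236 to 228 and 58 to 50 bases before their starts, and that of Socs3 lay 154 to 146 bases before its own. A match is a description of letters, not a measured binding site. The window of Cish held none, as the whole run shows; it is printed beside the first Igfals window because Cish had the largest difference and Igfals is the called gene with matches.
Cish, chr9:107296409-107296658, plus strand: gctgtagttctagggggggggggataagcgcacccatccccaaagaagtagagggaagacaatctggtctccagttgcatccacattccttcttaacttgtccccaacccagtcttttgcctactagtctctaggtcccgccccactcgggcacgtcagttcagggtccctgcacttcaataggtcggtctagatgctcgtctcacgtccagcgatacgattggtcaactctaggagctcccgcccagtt
Igfals, first start, chr17:24877594-24877843, plus strand: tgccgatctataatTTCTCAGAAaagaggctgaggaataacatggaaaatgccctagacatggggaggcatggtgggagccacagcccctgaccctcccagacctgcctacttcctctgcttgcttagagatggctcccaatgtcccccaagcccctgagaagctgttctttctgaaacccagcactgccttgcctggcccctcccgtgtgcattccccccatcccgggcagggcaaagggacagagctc

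Only these 250 bases were searched, so nothing follows for sites elsewhere. The genes next to each member in the GRCm38.p6 gene order gave 15 protein-coding neighbours with a probe. Of these 3 were called, all of them lower and all among the 11 at a signal of 7 or more. Over all genes at 7 or more, 24.3% were called and 11.3% were called lower. Nothing is read from so small a count. The called neighbours were Mapkapk3 and Hemk1 on either side of Cish, and Mrpl42, a mitochondrial ribosomal protein gene beside Socs2. Mrpl42 had a log2 fold change of -0.39 (limma adjusted p = 0.0411), which passed in only 1 of the 6 leave-one-out fits, the one without control replicate 2 (adjusted p = 0.0191). Neither Rcl1 beside Jak2 (-0.13, adjusted p = 0.425) nor Nubp2 beside Igfals (-0.11) was called. Stat5b, Stat5a and Stat3 are themselves adjacent on chromosome 11, with Stat5a lower and Stat3 higher.

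The Cish neighbours led to a wider look at 5 genes on each side, an extent chosen after the values were seen, of which 9 had a probe. Mapkapk3, a kinase activated by p38, read 8.83, 8.65 and 8.74 with AAV8-Prox1 and 9.56, 9.57 and 9.52 in the controls. The groups were far apart and each was tight, with means of 8.74 ± 0.09 and 9.55 ± 0.03 and a log2 fold change of -0.81 (SE 0.05, limma adjusted p = 0.000217). A second Mapkapk3 probe gave -0.75 (adjusted p = 0.0043). Hemk1, a methyltransferase gene on the other side, read 8.34, 8.44 and 8.49 against 9.05, 8.99 and 8.96, a log2 fold change of -0.58 (SE 0.05, adjusted p = 0.000739).

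The gene after Hemk1, 6430571L13Rik, had the largest fold of the neighbourhood, reading 9.47, 9.63 and 9.15 with AAV8-Prox1 and 11.31, 11.50 and 11.37 in the controls. Its groups were 9.42 ± 0.24 and 11.39 ± 0.10, a log2 fold change of -1.98 (SE 0.11, limma adjusted p = 0.000179), or 3.94-fold lower. Mapkapk3, Hemk1 and 6430571L13Rik were called in all 6 leave-one-out fits. Beyond them the values lay near 0, with Dcaf1 at 0.13 and Tmem115 at -0.10, neither called, and with Rbm15b, Manf, Dock3 and Cyb561d2 at background. Of the 9 neighbours 3 were thus called lower, all among the 5 at a signal of 7 or more, where 11.3% of all genes were called lower. As the extent was chosen after the values were seen, nothing is read from this count. Cish and these 3 genes are adjacent. The genes next to them, Dock3 at background and Cacna2d2 without a probe, could not show where the differences end.

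**Figure D4:**
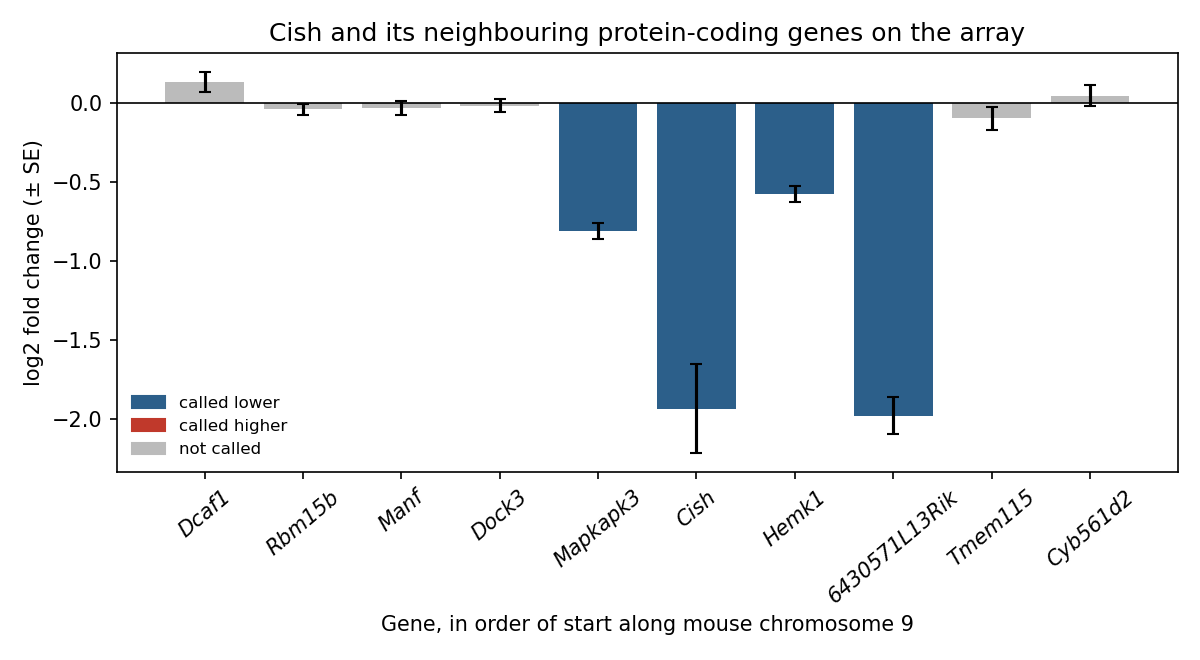
Log2 fold change, AAV8-Prox1 minus control (± SE), of Cish and the 9 neighbouring protein-coding genes with a probe, in their order along chromosome 9 (spacing is not to scale, and Cacna2d2, which lies between 6430571L13Rik and Tmem115, has no probe of its symbol). Mapkapk3, Cish, Hemk1 and 6430571L13Rik lie between -1.98 and -0.58, and the other 6 lie near 0.

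The wider pathway was read from 7 further lists. Their counts of calls are to be set against the 9.44% called over all genes and the 24.3% called at a signal of 7 or more, and are small enough that nothing particular to a list is read from them. Many of the listed genes lay at background, where a difference could not show, so medians are also given for the genes that reached a mean of 7, for which the median over all genes was 0.01. Of 18 measured cytokine receptor genes 1 was higher, 1 lower and 16 were not called, with a median log2 fold change of -0.05. A mean signal of 7 was reached by 6 of them, with a median of -0.06. Ifngr2, the second chain of the interferon-gamma receptor, was lower at 8.84 ± 0.04 against 9.29 ± 0.15 (-0.44, limma adjusted p = 0.0129), a call lost without AAV8-Prox1 replicate 2 (adjusted p = 0.0502) and with the mean of all probes, which gave -0.23 (adjusted p = 0.0664). Il13ra1, an interleukin-13 receptor chain, was higher at 7.16 ± 0.07, against controls that stayed at background on all arrays, so it was at least 1.11-fold higher (adjusted p = 0.0437), a call kept in 1 of the 6 leave-one-out fits. Il6st, the shared chain gp130, was not called (-0.21, adjusted p = 0.297), nor was the interferon-gamma receptor chain Ifngr1 (-0.02, adjusted p = 0.966).

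Of the 6 other measured JAK and STAT genes 2 reached a mean of 7, with a median of 0.22, and 1 was called lower, Jak3, which lay at background in both groups, so no fold is given, and its call (adjusted p = 0.0468) was lost in every leave-one-out fit. Jak1, which serves many cytokine receptors, was not called, with a log2 fold change of 0.18 (95% interval 0.02 to 0.34, limma adjusted p = 0.254). Tyk2 was at 0.26 (adjusted p = 0.336).

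Among 18 measured brakes of the pathway and parts of the SOCS ubiquitin ligase, 1 was higher and 1 lower, and the 10 that reached 7 had a median of -0.07. Pias1, an inhibitor of STAT DNA binding, was higher at 8.64 ± 0.03 against 8.27 ± 0.13 (0.37, limma adjusted p = 0.0149), a call lost without AAV8-Prox1 replicate 1 (0.0560) or 2 (0.0573) or control replicate 3 (0.0556). Its relative Pias2 was lower at 7.36 ± 0.03 against 7.65 ± 0.10 (-0.29, adjusted p = 0.0195), a call lost without AAV8-Prox1 replicate 1 (0.0710) or 2 (0.0700) or control replicate 1 (0.0618) and with the mean of all probes (-0.13, adjusted p = 0.0613). The ligase parts Elob, which SOCS proteins bind together with Eloc (-0.02, adjusted p = 0.967), and Cul5, the scaffold of the ligase (-0.16, adjusted p = 0.556), were not called. Eloc was lower without overlap but was not called either (-0.16, adjusted p = 0.296). The phosphatase gene Ptpn11, which acts on activated receptors, was at 0.04 (adjusted p = 0.829).

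Of 11 measured signalling partners of the growth hormone receptor 1 was higher, and the 5 that reached 7 had a median of 0.05. Src, a tyrosine kinase that the receptor can use beside Jak2, was higher at 7.08 ± 0.04, against controls at background on all arrays (at least 1.05-fold, limma adjusted p = 0.00533), and the call was kept in all 6 leave-one-out fits but lost with the mean of all probes (0.13, adjusted p = 0.127). Grb10, an adaptor that damps insulin and insulin-like growth factor receptors, was higher in each AAV8-Prox1 muscle than in each control but missed the threshold (0.55, adjusted p = 0.0604). The phosphoinositide 3-kinase subunit Pik3r1 was lower without overlap but not called (-0.61, adjusted p = 0.309). Its controls were widely spread, with replicate 2 at 11.44 and replicates 1 and 3 at 10.57 and 10.28.

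The insulin-like growth factor genes, which growth hormone acts through in muscle, gave 1 higher, 1 lower and 8 not called of 10, and the 8 that reached 7 had a median of 0.05. Igf1 itself was at 7.07 ± 0.05 against 7.11 ± 0.12, a log2 fold change of -0.04 with a 95% interval of -0.18 to 0.10 (limma adjusted p = 0.870), close to background. Its receptor Igf1r was at 0.23 (95% interval 0.05 to 0.41, adjusted p = 0.168). Igf2r, which clears insulin-like growth factor 2 and sorts lysosomal enzymes, was higher at 9.54 ± 0.06 against 8.67 ± 0.12, a log2 fold change of 0.87 (SE 0.06, adjusted p = 0.000399) or 1.83-fold. Igfbp3, the binding protein that forms the circulating complex with the Igfals product, was at least 1.27-fold lower (adjusted p = 0.0175), with AAV8-Prox1 values at background on all arrays. Its call was lost whichever AAV8-Prox1 replicate was left out (0.0638, 0.0566 and 0.0557) and without control replicate 2 (0.0541). With the mean of all probes the call was kept, at a log2 fold change of -0.23. Igfbp5, another of these binding proteins, was not called (-0.46, adjusted p = 0.148), and Igf2 was at -0.23 (adjusted p = 0.306).

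Of 13 further STAT5 targets, 1 was higher, 1 lower and 11 were not called. The 9 that reached 7 had a median log2 fold change of -0.04. Cdkn1a, the cell cycle inhibitor p21, was lower at 8.66 ± 0.15 against 9.25 ± 0.26 (-0.59, limma adjusted p = 0.0425), a call lost whichever AAV8-Prox1 replicate was left out (0.0823, 0.143 and 0.0866) and without control replicate 1 (0.0836) and with the mean of all probes (-0.43, adjusted p = 0.0756). Trib1, a pseudokinase gene, was higher at 7.79 ± 0.27 against 7.02 ± 0.02 (0.76, adjusted p = 0.00967) in all 6 leave-one-out fits, with 0.41 as the mean of all probes. Bcl6, a repressor that shares DNA sites with STAT5 and is lowered by it in liver, was at 10.90 ± 0.26 against 10.54 ± 0.14, without overlap, but was not called (0.37, 95% interval 0.07 to 0.66, adjusted p = 0.184). The stress-induced Gadd45g (0.23, adjusted p = 0.871) and the survival gene Mcl1 (-0.06, adjusted p = 0.745) were not called either. Gadd45g was widely spread in the controls, with replicate 2 at 11.62 and replicates 1 and 3 at 10.45 and 10.02. A gene that was not called is not shown to be unchanged.

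Of 15 measured STAT3 targets 6 reached 7, with a median of 0.11, and 1 was called. Fos, an immediate early transcription factor, was higher at 8.30 ± 0.55, against controls at background on all arrays, with a mean of 6.90 ± 0.07 (at least 2.46-fold, limma adjusted p = 0.0145), a call lost without control replicate 3 (0.05002) and with trend and robust estimation (0.0844). Cebpb, an acute phase transcription factor (-0.01, adjusted p = 0.983), the metallothionein Mt1 (-0.12, adjusted p = 0.898) and the AP-1 component Junb (0.54, adjusted p = 0.173) were not called. Junb was higher without overlap. Control replicate 2 was the highest of all muscles for Cebpb (12.37) and Mt1 (11.22).

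**Figure D5:**
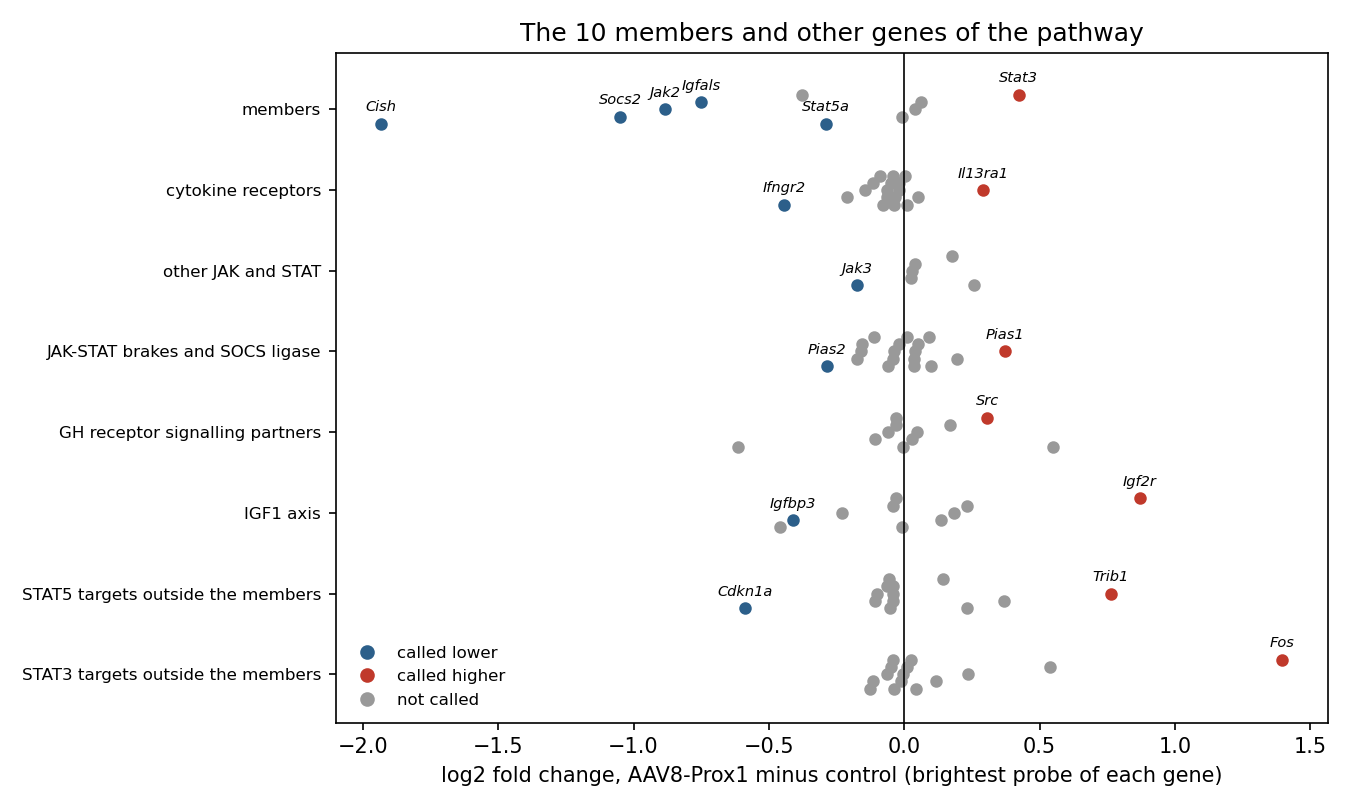
Log2 fold change, AAV8-Prox1 minus control, of the brightest probe of each measured gene (points), by list, with genes called lower, called higher and not called in 3 colours and the called genes named. The members reach -1.93 for Cish, and Fos at 1.40, Igf2r at 0.87 and Trib1 at 0.76 lie furthest above 0 among the called genes of the other lists. Genes at background, which lie near 0, are drawn like the rest.

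In whole muscle, fewer cells of a type and less RNA per cell cannot be told apart. Summed signals of markers of several cell types also lay apart between the groups, and such a sum is weighted to its brightest genes. The counts of calls are to be set against 9.44% over all genes and 24.3% of those at 7 or more. Without overlap between the groups, 4 of 9 endothelial markers were lower, and 8 of 9 macrophage and 5 of 7 fibroblast markers were higher. Of satellite cell markers 2 of 6 were apart higher, and of fibre markers 3 of 7 lower and 1 higher. No lymphocyte or adipocyte marker was apart. Over all genes 11.1% were apart lower and 12.2% higher. Of 9 measured endothelial markers 8 reached a signal of 7, with a summed linear signal of 5517 to 6845 in AAV8-Prox1 and 7406 to 9374 in control muscles, and 1 was called lower. Of 9 macrophage markers 4 reached 7 (998 to 1189 against 662 to 863), and 3 were called higher. These were Mrc1 (0.44), C1qc (0.34) and Cd14, which lay at background on all arrays, so no fold is given for it. Lyz2 (0.67) and C1qb (0.55) were higher without overlap but not called. Of 7 fibroblast markers 4 reached 7 (4633 to 5534 against 2873 to 4057), and 1, Lum, was called higher. Dcn, which weighs most in that sum, was not called (11.94 ± 0.19 against 11.41 ± 0.25, limma adjusted p = 0.0695). Of 6 satellite cell markers 3 reached 7 (902 to 1024 against 729 to 806), and 1, Chrna1, was called higher. Chrna1 encodes an acetylcholine receptor subunit that muscle fibres also make, and it was at 8.39 ± 0.16 against 7.49 ± 0.06, whereas Cdh15 (0.05) and Vcam1 (0.19) were not called and the defining Pax7 and Myf5 were at background. All 7 muscle fibre markers reached 7 (112368 to 113864 against 117505 to 118004), with 1 called higher and 3 lower. Lower were Myh4 (-1.04) and Tnnt3 (-1.20), which the paper names as fast genes, and Mb (-0.38), and Des was higher (0.60). Acta1 (0.07), Ckm (-0.04) and Actn3 (0.02) were not called. The paper reports lower Myh4 expression in TA muscle given AAV8-Prox1. None of 6 lymphocyte and 5 adipocyte markers reached 7. The part of these shifts in the values of Cish, Socs2, Jak2, Igfals, Stat5a and Stat3 was not tested.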

How the data were processed

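The RNA of 6 whole TA muscles, 3 per group, was measured on Illumina Mouse WG-6 v2 bead arrays. The deposited values are log2 signals per probe, which the authors quantile-normalized, rounded to 2 decimals. All arrays had a median of 6.61, and 12 columns of unnormalized signals and detection p-values, whose names match no labelled sample, were not used. Of 45281 probes, 34885 had 1 gene symbol in the platform annotation, 18 had several and 10378 had none. A moderated linear model (limma 3.58.1, R 4.3.3) was fitted to all 45281 probes with group as the only term, and p-values were adjusted by the Benjamini-Hochberg method over all of them. The brightest probe stood for a gene. Where a group lay under 7 on all arrays, the fold was a bound against 7. In simulated data with 200 changed probes, 25 of 50 probes with a log2 difference of 0.5 were called, 42 of 50 at 1, 49 of 50 at 1.5 and 47 of 50 at 2, and 8.43% of calls were of unchanged probes. Far fewer probes were changed there than were called in the data (6.02% of all), which makes the adjusted threshold stricter. These rates are thus not those of the comparison itself. The number of arrays limits the precision.

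The members and the gene lists were chosen with earlier results of these data known, and some genes stand in 2 lists. All 10 members are named. From each other list, called genes above background were named, up to 6 by smallest adjusted p, with up to 3 of the brightest uncalled genes, and Igf1, Igf1r, Jak1 and Bcl6 were named in any case. Eloc was added beside Elob. Neighbouring genes and promoter sequences came from RefSeq (GRCm38.p6). The array's genome build is not given in the sources used here. Alternatives were the mean over a gene's probes, the replicate number as a block, eBayes with trend and robust estimation, a filter on dim probes, centred arrays, another background limit and leaving out each muscle.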

Additional observations from a re-analysis of the deposited data

How the results depend on the processing

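Of the 10 members, 6 were called in the fit reported above, 5 with the mean of all probes, where Stat5a missed the threshold, 6 with the mean of probes at 7 or more, 5 with trend and robust estimation, where Cish and Stat5a missed the threshold and Ghr passed it, 7 with dim probes left out, and 4 to 5 when 1 muscle was left out. All called members kept their direction under these alternatives. Over all genes the 1799 calls became 1246 to 1490 without 1 muscle. Cytokine receptors gave 2 calls, 1 with either mean of probes and 0 to 2 without 1 muscle. Other JAK and STAT genes gave 1, then 0 with either mean of probes, with dim probes left out and without any 1 muscle. Brakes gave 2, then 1 with the mean of all probes and 0 to 3 without 1 muscle. Receptor partners gave 1, then 0 with either mean of probes, 2 with trend and robust estimation or with dim probes left out, and 1 to 2 without 1 muscle. The insulin-like growth factor list gave 2, and 1 to 3 without 1 muscle. STAT5 targets gave 2, then 1 with the mean of all probes and 1 to 2 without 1 muscle. STAT3 targets gave 1, then 2 with the mean of probes at 7 or more or with dim probes left out, 0 with trend and robust estimation and 0 to 1 without 1 muscle. Igf1 turned from -0.04 to 0.025 with the mean of all probes and ranged from -0.105 to 0.005 without 1 muscle (0.005 without control replicate 1). Stat5b, at background, ranged from -0.05 to 0.03 without 1 muscle. Socs3 turned from 0.06 to -0.04 with the background limit at 7.5. There all its controls lay under the limit, so its AAV8-Prox1 mean of 7.46 was set against 7.5. None of these genes was called. The cause of the other changes was not tested. Centring the arrays changed no call, but quantile normalization had already made the arrays alike, so this was no separate check. Over the 34 single genes followed through the alternatives, 45 values kept the direction but lost the call and 4 gained it.

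Same-numbered muscles did not deviate together (correlations of -0.13, 0.04 and -0.08 over all probes), so the numbers were not taken to pair them. With the replicate block, 1280 genes and 5 members were called, the lost member being Stat3, with 0 cytokine receptors, 0 other JAK and STAT genes, 1 brake, 1 receptor partner, 2 insulin-like growth factor genes, 1 STAT5 target and 1 STAT3 target.

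In simulated data with 3 muscles per group and 200 changed probes, 25 of 50 with a log2 difference of 0.5 were called. In the data 6.02% of the 45281 probes were called, so the threshold was less strict and that rate does not carry over. Folds against a group at background are bounds, and Stat5b, Socs1 and Prox1 could not be measured.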
